A study of Solanum tuberosum with 6 samples.

Results

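In wild-type potato (Solanum tuberosum) cells, 56 of 15181 listed genes had mRNAs that were consistently enriched in RNA of purified mitochondria (0.369%). A gene was counted when its lowest level over the 3 mitochondrial RNA libraries (MitoRNA) was at least 2 times its highest level over the 3 total RNA libraries (TotRNA). Levels are given in CPM, the count of a gene divided by the summed counts of its library and multiplied by 1000000. The members were therefore chosen on the same 6 libraries that are described here, and their enrichment is a description and not a test. By the mirrored rule, 1320 genes (8.70%) had a lowest TotRNA level of at least 2 times their highest MitoRNA level. All listed genes had at least 50 counts in each TotRNA library, with no such minimum in MitoRNA. Genes rare in total RNA are thus missing from the list, so the 56 and the 1320 are not like counts. The median log2 ratio of means was also -0.15 over all listed genes, and the mirrored rule was not applied on another scale.

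Both groups were wild type, with 3 libraries each, and the labels name no treatment, age or tissue beyond potato cells. RNA of both kinds was selected on oligo-dT beads, which keep cytosolic mRNAs and leave behind many mRNAs made inside mitochondria, as stable ones lack a poly(A) tail. Whether the 3 libraries of a group came from separate cultures is not stated, so their spread may be technical. The title of the series places the comparison in the question of which mRNAs associate with plant mitochondria and how upstream start codons in 5′ untranslated regions bear on that.

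Most proteins of plant mitochondria are encoded in the nucleus, made on cytosolic ribosomes and imported through translocases of the outer and inner membranes. Some of the mRNAs for such proteins are found at the mitochondrial surface, where ribosomes, signals in the nascent protein and elements in untranslated regions can hold them. An mRNA that purifies with mitochondria can encode a mitochondrial protein or another protein, and the level alone does not tell these apart. The IDs of the listed genes carry no names, and 0 of them matched the 32873 potato genes of the RefSeq table for assembly SolTub_3.0, so the functions of the members, their sequences and the markers of other organelles were not analysed here.

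The libraries held 12799068 to 34776699 counts in MitoRNA and 54599781 to 85355383 in TotRNA. Every listed gene had at least 50 counts in each TotRNA library, so a gene rarer than that in total RNA was not analysed here, however abundant it was at mitochondria. This minimum acts on the side where members are found. Levels are shares of a library averaged over many cells: a higher level in MitoRNA cannot be told apart from lower levels of other mRNAs there, and more cells with an mRNA cannot be told apart from more copies per cell.

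The enriched mRNAs held 1 extreme case, and the others had moderate ratios that begin at the cut-off of 2. That lower edge is set by the rule: the nearest gene outside had a ratio of 1.9987, and 197 genes reached 1.5. PGSC0003DMG400002202 had a lowest MitoRNA level 520 times its highest TotRNA level. For the other 55 members this ratio lay between 2.002 and 4.51, with a median of 2.46 and quartiles of 2.18 and 2.85. Only 10 members reached a ratio of 3 and 3 reached a ratio of 4. By ratio of group means, 23 members were up to 4-fold higher in MitoRNA, 32 were between 4-fold and 8-fold higher, and PGSC0003DMG400002202 was the single member past 8-fold. The median ratio of means was 4.11 over the members, and the log2 ratio of means had a median of 2.04, against -0.15 over all listed genes.

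**Figure D1:**
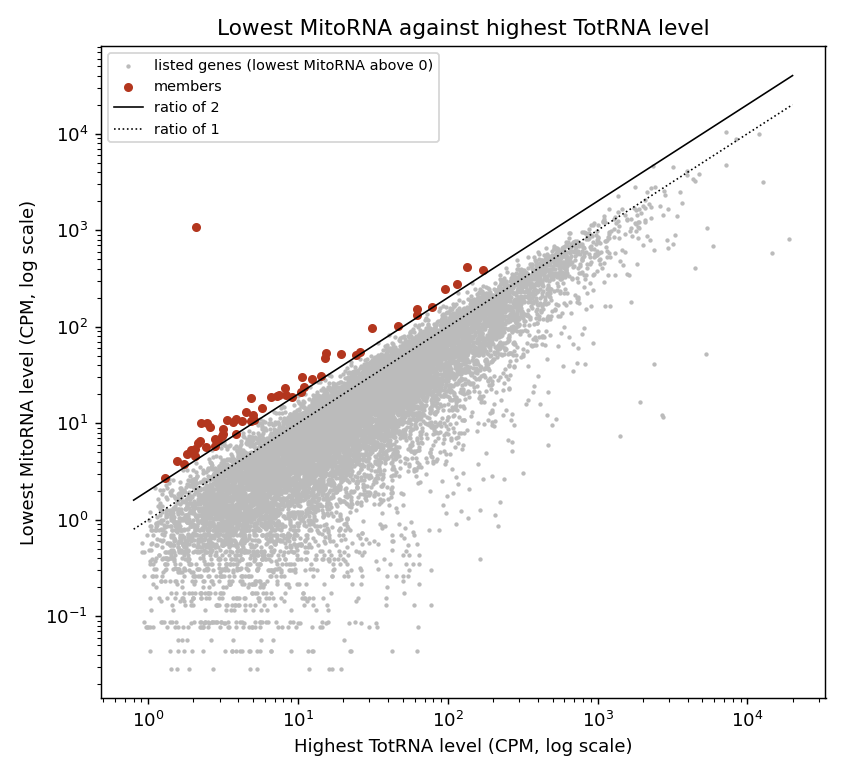
Each point is a gene, placed by its highest level over the 3 TotRNA libraries and its lowest level over the 3 MitoRNA libraries, both in CPM on log axes; genes at 0 in a MitoRNA library cannot be drawn on this scale. The 56 members (red) lie on or above the line at a ratio of 2, with 55 of them within a ratio of 4.51 and PGSC0003DMG400002202 far above the rest.

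PGSC0003DMG400002202, whose ID the files pair with no name, was at 2055, 5168 and 1086 CPM in MitoRNA replicates 1, 2 and 3. In TotRNA it was at 1.19, 1.76 and 2.09 CPM. These levels rested on 37783 to 66146 counts per library in MitoRNA and on 65 to 173 in TotRNA. All 3 MitoRNA values lay far above all 3 TotRNA values, but they also differed among themselves by 4.76-fold, the widest range of any member. The exact 95% interval of its ratio, from counting error alone, began at 448. It supplied 36.8%, 56.3% and 27.4% of the counts of all members in the MitoRNA libraries, and 0.176% to 0.207% in the TotRNA libraries.

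Members spanned mean TotRNA levels from 1.07 to 144 CPM. In mean MitoRNA level, 10 members exceeded 100 CPM, 30 lay between 10 and 100 CPM, and 16 were below 10 CPM. The median member stood at 19.98 CPM in MitoRNA and at 4.26 CPM in TotRNA. The medians over all listed genes were 14.3 and 17.7 CPM. The members were near the middle of the list at mitochondria and low in total RNA. The rule itself asks for a lower place in total RNA, so this is a description. Ordered from the most abundant gene downwards, the median rank of the members was 6456 of 15181 in MitoRNA and 12430 in TotRNA. None of the 200 most abundant genes of total RNA, which begin at 626 CPM, was a member. A single member, PGSC0003DMG400002202 at rank 18, was among the 200 most abundant genes of MitoRNA. Over all listed genes 0.369% were members, so such small counts among 200 genes are near that share and nothing is read from them.

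Below that gene, the most abundant members at mitochondria lay above the median of all listed genes in total RNA, which was 17.7 CPM. The member second by MitoRNA level was at 419, 743 and 449.5 CPM in MitoRNA replicates 1 to 3, and at 56.3, 128 and 135 CPM in TotRNA. Its values did not overlap, and its lowest TotRNA value was that of replicate 1. The third was PGSC0003DMG400029724, which also had the highest TotRNA level of all members. It was at 558, 386 and 438 CPM in MitoRNA and at 113, 146 and 171 CPM in TotRNA, so its lowest MitoRNA level was 2.25 times its highest TotRNA level. It is the nearest the members come to the abundant mRNAs of total RNA, at rank 1437 there and rank 385 at mitochondria.

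The next members by MitoRNA level differed in how far their TotRNA values spread. The fourth was at 478, 433 and 277 CPM in MitoRNA and at 37.1, 103 and 115 CPM in TotRNA, where replicate 1 was the lowest by far. The fifth was at 248, 323 and 246 CPM in MitoRNA and at 71.2, 95.5 and 86.4 CPM in TotRNA, with narrow groups on both sides. The sixth was at 161, 334 and 179 CPM in MitoRNA and at 26.9, 77.8 and 76.4 CPM in TotRNA. In the sixth, MitoRNA replicate 2 was high and TotRNA replicate 1 was low. For members 7 to 10, MitoRNA levels ran from 98.1 to 200.02 CPM and TotRNA levels from 18.2 to 62.0 CPM.

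**Figure D2:**
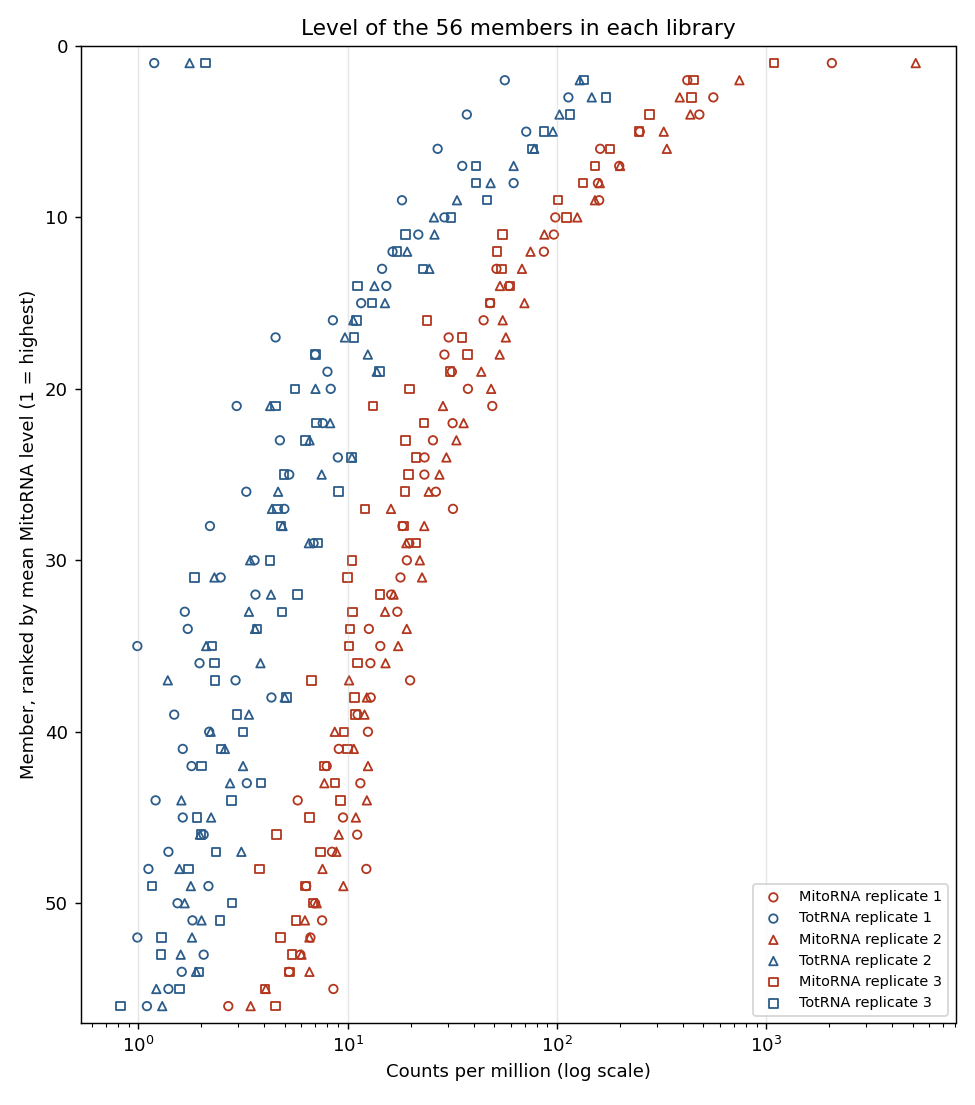
Levels of the 56 members in CPM on a log axis, 1 row per member, ordered by mean MitoRNA level. Red symbols are MitoRNA and blue symbols TotRNA libraries, with circles, triangles and squares for replicates 1, 2 and 3; in every row the red symbols lie to the right of the blue ones by at least the factor of 2 that the rule sets.

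Ordered by the ratio instead, the leading members were mostly rare mRNAs. The member second by ratio, at 4.51, had 14.3, 17.4 and 10.1 CPM in MitoRNA and 0.989, 2.11 and 2.25 CPM in TotRNA. The third, at a ratio of 4.04, had 17.9, 22.7 and 9.98 CPM in MitoRNA and 2.47, 2.31 and 1.86 CPM in TotRNA. In both, MitoRNA replicate 3 was the lowest of its group. Members 4 to 10 by ratio ran from 3.74 down to 3.11, and the tenth was also the second most abundant at mitochondria. The sixth by ratio combined a ratio of 3.49 with close replicates, at 58.9, 53.4 and 59.7 CPM in MitoRNA and 15.3, 13.4 and 11.1 CPM in TotRNA.

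The share of genes that were members fell with the level in total RNA. Members were 11 of 1004 genes below 2 CPM in TotRNA (1.10%), 20 of 2189 from 2 to 5 CPM (0.914%) and 14 of 4885 from 5 to 20 CPM (0.287%). They were 9 of 5067 genes from 20 to 100 CPM (0.178%) and 2 of 2036 genes at 100 CPM or more (0.0982%). Genes of the mirrored rule became rarer along the same scale, from 18.5% of the lowest class to 6.41% from 20 to 100 CPM and 3.54% at 100 CPM or more. At 20 CPM and above, 11 genes were members and 397 followed the mirrored rule. A low TotRNA level is itself part of the rule, so these shares are a description.

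As a group the enriched mRNAs were a small part of the RNA at mitochondria. Their counts made up 0.559%, 0.917% and 0.397% of MitoRNA replicates 1, 2 and 3, and 0.0667%, 0.0998% and 0.101% of the TotRNA replicates. The means were 0.624% ± 0.266 in MitoRNA and 0.0891% ± 0.0194 in TotRNA (SD, n = 3 each). Without PGSC0003DMG400002202 the other 55 members made up 0.348% ± 0.0571 of MitoRNA and 0.0889% ± 0.0193 of TotRNA (SD, n = 3 each). For these shares the gene was also left out of the library sums. That single gene therefore carried much of the share and most of its spread over the MitoRNA libraries.

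The spread over replicates had similar medians in the members and in all listed genes. The coefficient of variation (SD divided by the mean) over the 3 MitoRNA libraries had a median of 23.0% over the members and 25.2% over all listed genes. Over the TotRNA libraries the medians were 23.0% and 22.4%. The highest MitoRNA value was more than 2 times the lowest in 13 members, and the same held for TotRNA in 14 members, with 3 members in both sets. Over all listed genes these shares were 32.8% in MitoRNA and 24.3% in TotRNA, and 13 and 14 of 56 members are a smaller and a similar share. In the other 32 members both groups stayed within a factor of 2. The rule uses the lowest MitoRNA and the highest TotRNA value, so a wide spread works against membership.

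The widest and the narrowest members show what this range means. PGSC0003DMG400002202 had a coefficient of variation of 77.0% over MitoRNA. Next came the member twelfth by ratio, at 59.5%, with 49.1, 28.5 and 13.2 CPM in MitoRNA replicates 1 to 3 and 2.95, 4.26 and 4.51 CPM in TotRNA. Its ratio of 2.92 was thus set by MitoRNA replicate 3. At the other end, the member at position 32 by ratio varied by 2.12%, with 6.98, 7.11 and 6.81 CPM in MitoRNA. These values rested on only 161, 91 and 237 counts, so their closeness is not read as a trait of the gene. In TotRNA the same member was at 1.54, 1.66 and 2.80 CPM and varied by 34.8%. The seventh by ratio varied by 5.35%, with 11.1, 12.0 and 10.9 CPM in MitoRNA and 1.48, 3.37 and 2.96 CPM in TotRNA.

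**Figure D3:**
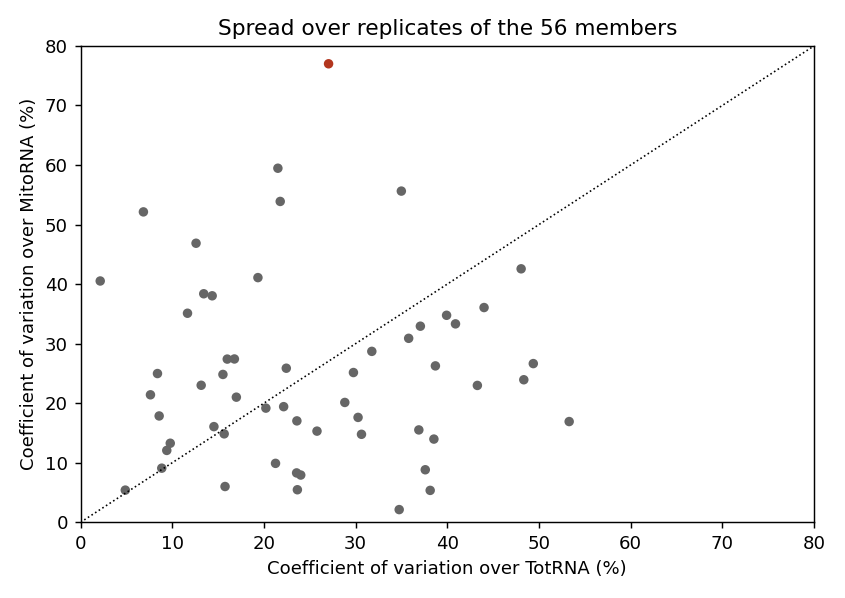
Coefficient of variation over the 3 TotRNA libraries (horizontal) and over the 3 MitoRNA libraries (vertical), in percent, for each of the 56 members; the dotted line marks equal values and the red point is PGSC0003DMG400002202. Of the 56 members, 25 varied more in MitoRNA than in TotRNA, as did 56.9% of all listed genes.

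Single libraries took the same place in many members. MitoRNA replicate 2 was the highest of its group in 35 of 56 members, replicate 1 in 18 and replicate 3 in 3. Replicate 3 was the lowest in 40 members. Over all listed genes, replicates 1, 2 and 3 were the highest in 43.2%, 28.2% and 28.6%. They were the lowest in 41.8%, 17.2% and 41.0%, so replicate 1 was the lowest about as often as replicate 3 there, while it was the lowest in 11 members. In TotRNA, replicate 1 was the lowest in 38 members, and it was the lowest in 41.1% of all listed genes. TotRNA replicates 1, 2 and 3 were the highest in 9, 21 and 26 members. Over all listed genes they were the highest in 30.6%, 42.9% and 26.4%. Of the 14 members whose TotRNA values spread past 2-fold, 13 had replicate 1 as the lowest, and of the 13 that spread past 2-fold in MitoRNA, 11 had replicate 3 as the lowest. MitoRNA replicate 2 held the fewest counts and replicate 3 the most among the MitoRNA libraries, and TotRNA replicate 1 the fewest in its group; the part of depth in these orders was not tested.

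Between libraries of the same number, the enrichment was smallest for number 3. The median log2 ratio of MitoRNA to TotRNA over the members was 2.41 for the libraries numbered 1, 2.06 for number 2 and 1.59 for number 3. Over all listed genes these medians were -0.13, -0.20 and -0.17. The highest of the 3 ratios was that of number 1 in 38 members, of number 2 in 12 and of number 3 in 6. Whether the same number marks a matched preparation is not stated and was not settled here. These are therefore given as ratios between libraries.

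**Figure D4:**
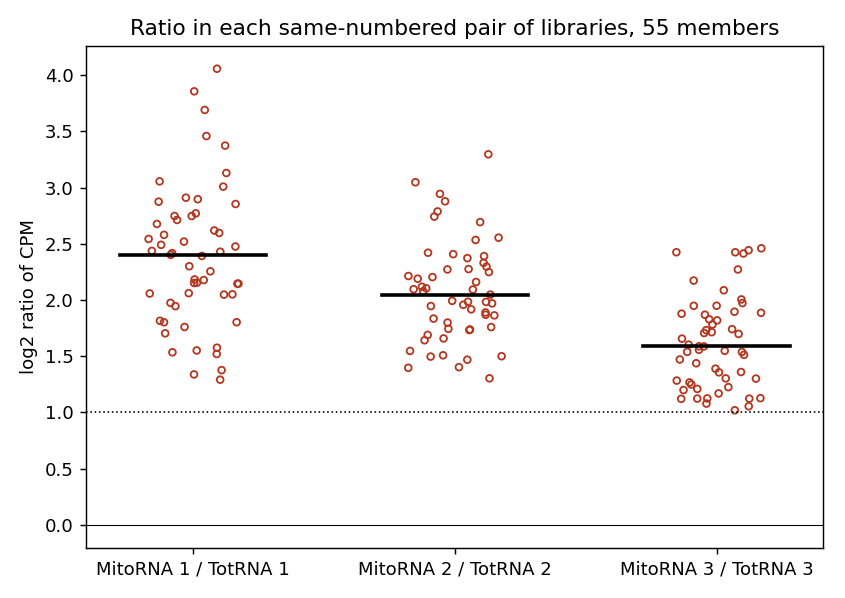
log2 ratio of CPM between the MitoRNA and TotRNA libraries with the same replicate number, for the 55 members other than PGSC0003DMG400002202, whose ratios would stretch the axis; bars are the medians of the 55 and the dotted line marks a 2-fold ratio. All points lie above it, as the rule requires, and the points of number 3 lie closest to it.

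Genes chosen on 4 libraries were then described in the pair of libraries that the choice had not used. Each list of chosen genes includes the 56 members. For these the rule fixes an at least 2-fold higher MitoRNA level in that pair. Without the libraries numbered 1, 127 genes met the rule. In that pair 122 of them (96.1%) had a higher MitoRNA than TotRNA level, and 97 (76.4%) were at least 2-fold higher. Among the genes not chosen, 44.9% were higher in this pair and 11.6% at least 2-fold higher. Without the libraries numbered 2, 79 genes met the rule, and in that pair all 79 were higher in MitoRNA and 74 (93.7%) at least 2-fold higher, against 40.0% and 4.27% of the genes not chosen.

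The libraries numbered 3 gave a different picture. Without them 293 genes met the rule, of which 245 (83.6%) were higher in MitoRNA in the pair left out, but only 83 (28.3%) at least 2-fold higher. Among the genes not chosen, 38.7% were higher in this pair and 1.65% at least 2-fold higher. The median ratio of the 293 genes in this pair was 1.49, where the corresponding values were 3.01 for number 1 and 3.65 for number 2. The direction of enrichment was thus the same in the unused pair for 83.6% or more of the chosen genes. A 2-fold size was seen there for 28.3% to 93.7%. The 56 members are part of each of these shares by the rule, so the shares are a description.

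Among single libraries left out, MitoRNA replicate 3 moved the number of consistently enriched genes the most. Without it 185 genes met the rule, without MitoRNA replicate 1 it was 96, and without MitoRNA replicate 2 it was 58. Without TotRNA replicates 1, 2 and 3 in turn, 86, 76 and 93 genes met it. A rule of this form can only gain genes when a library is left out, so the 56 members are in each of these lists. Of the 185 genes chosen without MitoRNA replicate 3, 170 had a higher level in it than in any TotRNA library. The 170 include the 56 members, for which the rule fixes this, and the other chosen genes numbered 129. The share of all listed genes with this order was not analysed here, so the count is a description.

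**Figure D5:**
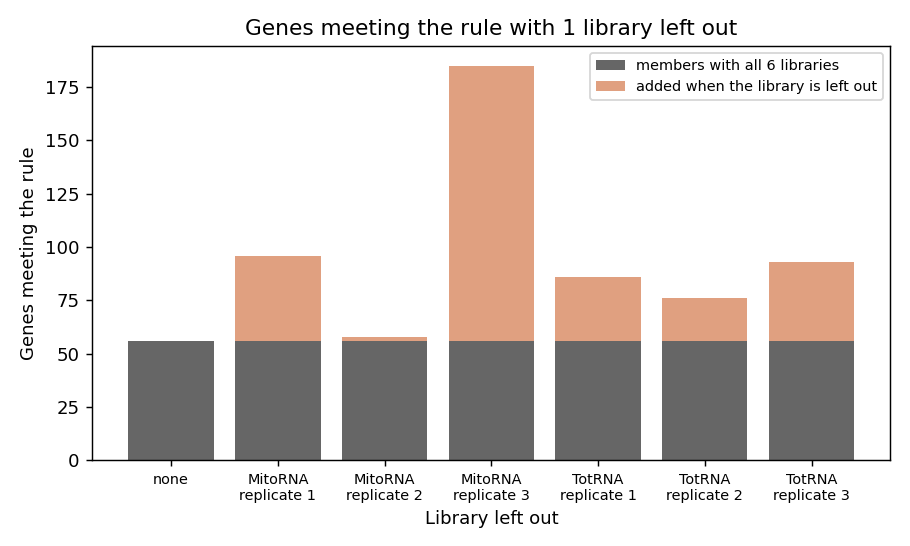
Number of genes that met the rule with all 6 libraries (first bar) and with each library left out in turn; the grey part of each bar is the 56 members and the light part the genes added. Leaving out MitoRNA replicate 3 added 129 genes, and leaving out MitoRNA replicate 2 added 2.

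By the rule, every member also has a mean MitoRNA level of at least 2 times its mean TotRNA level. The mean MitoRNA level was at least 2 times the mean TotRNA level in 566 genes (3.73% of those listed), of which the 56 members were 9.89%. Among the other 510, the groups overlapped in 180. MitoRNA replicate 3 was the lowest of its group in 388 of the 510, replicate 1 in 91 and replicate 2 in 31. Over all listed genes replicate 3 was the lowest in 41.0%, replicate 1 in 41.8% and replicate 2 in 17.2%. All 3 MitoRNA libraries lay above all 3 TotRNA libraries in 1959 genes (12.9%), which by the rule include the members.

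Counts set how firmly a member near the threshold can be placed. The smallest MitoRNA count of a member ranged from 44 to 37783 (median 286.5), and the smallest TotRNA count from 54 to 6185 (median 188). With exact 95% intervals for the ratio of its lowest MitoRNA to its highest TotRNA library, which cover counting error only, 41 members stayed above a ratio of 2 and 55 above 1.5. The 3 members just inside the threshold had ratios of 2.0024, 2.018 and 2.064, and the 3 genes just outside had 1.9987, 1.9983 and 1.9974. The member nearest the threshold had a lowest MitoRNA level of 7.73 CPM and a highest TotRNA level of 3.86 CPM, and the nearest gene outside had 11.1 and 5.55 CPM. The interval of the nearest member began at 1.58, so counting error alone was wider than the distance between these neighbours.

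A test across all genes gave the background for these members. With edgeR's quasi-likelihood test on 3 against 3 libraries, at an adjusted p of 0.05 after Benjamini-Hochberg, 860 of 15181 genes were called higher in MitoRNA (5.66%) and 1994 lower. All 56 members were among those called higher, and nothing is read from that count, because the rule used the same contrast. The edgeR log2 fold changes of the members ran from 1.46 to 10.82, with a median of 2.19 against 0.01 over all genes, and their standard errors from 0.20 to 0.77. These fold changes use trimmed mean of M-values (TMM) scaling, while library size alone gave a median log2 fold change of -0.15 over all genes. With library size alone 427 genes were called higher and 2381 lower, and all 56 members stayed among those called higher. The background depended strongly on some single libraries. There were 133 genes called higher without MitoRNA replicate 2 and 134 without TotRNA replicate 2. Without TotRNA replicate 1 there were 312, and without TotRNA replicate 3 there were 529. The number moved less without MitoRNA replicate 1 (709) and without MitoRNA replicate 3 (845). The members called fell to 54 without MitoRNA replicate 2, to 50 without TotRNA replicate 2 and to 55 without TotRNA replicate 3.

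Consistency and average size picked partly different genes. Of the 56 genes with the largest edgeR log2 fold changes, 26 were members, and the lowest rank of a member was 295. PGSC0003DMG400029724 had an edgeR log2 fold change of 1.84 (SE 0.25), and PGSC0003DMG400002202 one of 10.82 (SE 0.77). Past 2-fold, 473 genes were called higher (3.12%), and the members made up 11.8% of them. In the authors' deposited table, 2495 genes were higher in MitoRNA at an adjusted p below 0.05 (16.4%). The 56 members were among them, with log2 fold changes of 1.42 to 9.75 in the authors' deposited table and a median of 2.08.

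No pair of members had adjacent ID numbers. No member shared the last 6 digits of its ID with another listed gene, while 1349 of 15181 listed IDs (8.89%) did. The members' IDs began with 400 in 54 cases and with 402 in 2, where 13144 and 916 of the listed IDs do. The smallest distance between the numbers of any pair of members was 11. No such distance was taken for other sets of genes, so nothing is read from it. What these digits stand for is not stated in the labels or files.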

How the data were processed

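The authors' processing, per the submitters' processing notes, named HTSeq 0.5.4p3, DESeq2, Bowtie2 2.1.0, TopHat2 2.0.8b and CASAVA 1.8.2. Neither labels nor file headers state the build, the annotation or the use of strand, so genes that share reads cannot be recognised. The deposited tables hold raw read counts per gene. The authors' deposited comparison table gives a mean normalised signal, log2 fold changes with standard errors, a Wald score and p-values.

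CPM used the column sums of the listed genes. The test was that of edgeR 4.0.16, run in R 4.3.3 (TMM scaling, filterByExpr, which removed 0 genes, quasi-likelihood test, Benjamini-Hochberg adjustment over all genes). It was checked on simulated data. Standard errors were derived from the fold change and F. Intervals are exact binomial (Clopper-Pearson, scipy 1.17.1).

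The members, lists and naming rule were chosen with earlier results of these data known. Without gene names, at most 2 IDs are printed: the member with the largest ratio and the member with the highest TotRNA level; others are given by rank. Both groups have replicates numbered 1 to 3. Deviations of log2(CPM + 1) from the group means correlated at 0.44, 0.46 and -0.05 between same-numbered libraries. With the other TotRNA libraries, MitoRNA replicate 1 correlated at -0.54 and -0.04, and replicate 2 at -0.47 and 0.15. For MitoRNA replicate 3 these values were -0.27 and 0.42. They do not settle whether the numbers pair the libraries, so the main test used no pairing. No library repeated another within sampling noise (chi-square per degree of freedom 39.8 to 537). Alternatives covered the multiple in the rule, scaling, filter, test, replicate block and libraries left out.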

Additional observations from a re-analysis of the deposited data

How the results depend on the processing

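The number of consistently enriched genes was 56 and depended on each part of the rule: it was 197 at a multiple of 1.5, 10 at a multiple of 3 and 3 at a multiple of 4. It was 93 with TMM-scaled CPM, 86 after upper quartile scaling, 95 by DESeq2 size factors, 566 with group means and 16 with a mean TotRNA level of at least 10 CPM. With 1 library left out it was 58 to 185, and without replicates 1, 2 and 3 of both groups in turn 127, 79 and 293. The share of MitoRNA counts went from 0.624% to 0.348% without the most abundant member, which was then also left out of the library sums. Genes called higher numbered 860, 427 with library size alone, 1587 with DESeq2 1.42.0 (32 adjusted p-values not given) and 133 to 845 with 1 library left out; limma-voom 3.58.1 gave 777. With the replicate block 1014 genes were higher, and all 56 members stayed called; MitoRNA replicate 3 correlated best with TotRNA replicate 2 (0.42), not with replicate 3. Members called were 56 under each scaling and test, and 50 to 56 with 1 library left out. The rule used the same contrast, so nothing is read from these counts of members. No low-count filter removed nothing and tested nothing. The alternatives for genes sharing the last 6 ID digits with a member gave no value, since 0 such genes are listed. Depth limits the rarest members, with 44 counts in the smallest case.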

Other observations

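The numbers of the gene IDs allow 1 further description, chosen after the values were seen. Among listed genes that are no members, 63 have an ID number directly before or after that of a member. Their median log2 ratio of mean MitoRNA to mean TotRNA level was -0.10, against -0.15 over all listed genes. With edgeR at an adjusted p of 0.05, 0 of the 63 were called higher in MitoRNA, where 5.66% of all genes were. At an unadjusted p of 0.05, 3 of the 63 were higher (15.1% of all genes), and DESeq2 called 3 (10.5% of all genes). Of the 63, the authors' deposited table has 4 as higher (6.35%), against 16.4% of all genes. Whether adjacent numbers mean adjacent genes is not stated in the labels or files.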
